A study of Macaca mulatta with 2 samples.

Results

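Cytoplasmic ribosomal protein genes encode the proteins that join ribosomal RNA to form the small and the large subunit of the ribosome outside the mitochondria. They were taken by symbol, as every listed gene beginning with RPL or RPS and a number, without the S6 kinases, together with *RPSA*, *RPLP0*, *RPLP1* and *RPLP2*. This gave 85 of the 16684 listed genes. Of these, 29 encode proteins of the small subunit and 45 proteins of the large subunit, 10 are paralogs of a subunit gene, and *RPS19BP1* encodes a protein that binds RPS19. The rule used symbols and no measured values, though the members and lists were chosen with earlier results of these data known.

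Bulk RNA-seq was performed on 2 libraries of untreated optic nerve from wild-type macaques (*Macaca mulatta*), the only condition of the series. The nerves were collected after death, and libraries were amplified from small RNA amounts by SMARTer v4 Ultra Low Input chemistry. The methods of the study name a single male as the donor, whereas the description deposited with the data names 2 animals, so the libraries, called Rep1 and Rep2, are nerves of either 1 animal or 2. Levels are given in TPM, a length-corrected share of the library, which divides the reads of a gene by its length and by the sum over all genes of the library. With 1 condition there were no groups to test, and the values describe these libraries.

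In a ribosome nearly every one of these proteins is present once, so cells need them in matched amounts. Their mRNAs are among the most abundant in a cell, and many begin with a 5′ terminal oligopyrimidine (TOP) tract, a C followed by a run of C and T, through which the mTOR kinase and LARP1 adjust their translation. Ribosomal protein genes have also left many processed copies in primate genomes, and several carry small nucleolar RNAs (snoRNAs), guides for ribosomal RNA modification, in their introns. In the optic nerve, ribosomes lie mainly in glial cells and in cells of the vessels and sheath, because the axons belong to neurons whose cell bodies are in the retina.

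The transcript starts that the RefSeq annotation of Mmul_10 gives were read from the genome for the members that differed most between the libraries, because the TOP tract is the sequence through which these mRNAs are regulated together. Each line gives the 15 bases before the annotated start and the first 15 bases of the transcript, 5′ to 3′. Genes with several annotated starts, such as *RPL6*, are shown by a single start, and their other starts were read but are not shown. Capitals mark the start base with the C and T run that follows it where the transcript opens with a C and at least 4 pyrimidines, and otherwise the start base alone. The 5 members with the largest difference toward Rep1 were the following.
*RPS27A*: tagaaaaccaagtgaCTTCCTTTTCgatcc
*RPS19*: ggaaaccccgtcgctCCCTTTCCCCTggct
*RPL11*: gatctctgtggttagCctgggaaaaaagcc
*RPS27*: ggatttccgctttcgCTCTTTTCCggcggt
*RPLP0*: cctctctcttctcagTgacatcgtctttaa
The 5 members with the largest difference toward Rep2 were the following.
*RPS19BP1*: cctaagaaagatgggCacttccgcccatcc
*RPL6*: aaaaaatatttgtagAtggcgggtgaaaaa
*RPL39L*: agcctctggccccgcCagggcgtacgaatc
*RPL36*: gctcagtgagaccgcGgggggaagactcca
*RPL7L1*: tggggttgcgcatgaTcagtagctgcacca
The windows lie in Mmul_10 for *RPS27A* at chr7:127585580-127585609 (plus strand), *RPS19* at chr19:41001978-41002007 (plus strand), *RPL11* at chr1:201073052-201073081 (minus strand), *RPS27* at chr1:97072059-97072088 (minus strand) and *RPLP0* at chr11:119980999-119981028 (minus strand). For the members higher in Rep2 they lie for *RPS19BP1* at chr10:12012040-12012069 (plus strand), *RPL6* at chr11:112121661-112121690 (minus strand), *RPL39L* at chr2:10688434-10688463 (plus strand), *RPL36* at chr19:5613266-5613295 (plus strand) and *RPL7L1* at chr4:126466546-126466575 (minus strand). A pyrimidine start was present for *RPS27A*, *RPS19* and *RPS27* and was not present at any annotated start of the other 7. *RPS27A* is annotated with 1 exon in this build, so its tract is that of an intronless locus and need not be the start of a spliced gene. Whether transcription begins at the annotated starts in these libraries was not tested, so a tract could be missed. In *RPLP0* a pyrimidine run lies just before the start shown, so it was not counted. That start lies inside the gene, whose annotated 5′ end is at 119981328, so the run need not be a TOP tract. The start shown for *RPL6* also lies inside its gene, whose annotated 5′ end is at 112122843, and opens with ATG. The *RPL6* line therefore cannot show whether its mRNA opens with a TOP tract.

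Over all members, 23 of 85 (27.1%) had a pyrimidine start at 1 or more annotated transcripts, against 7.25% of the 16275 listed protein-coding genes. Genes with a single annotated start gave 14 of 41 members (34.1%) against 3.23% of all such genes. Of 16 other genes known for TOP mRNAs, such as elongation factor genes, 6 (37.5%) had it, and of 76 mitochondrial ribosomal protein genes, 3 (3.95%) did. The letters CTCTTT were sought on the strand that reads like the mRNA, within 50 bases of an annotated start. They occurred in 23.5% of the members and 6.78% of all listed protein-coding genes. For CTTTCC, which can overlap the first motif, the shares were 23.5% and 7.99%. The 10 paralogs had no pyrimidine start at any annotated transcript. The 23 members with a pyrimidine start had a median level of 55.4 TPM in Rep1 and 109 in Rep2, and the other 62 had medians of 40.6 and 117 TPM when the 59 averaging 1 TPM or more were taken. Their median differences in log2(TPM + 1), Rep1 minus Rep2, were -1.25 and -1.68.

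The ribosomal protein genes stood high among the genes of the optic nerve. Their values summed to 9924 TPM in Rep1 and 12910 in Rep2, or 0.992% and 1.29% of all TPM, an average of 1.14% ± 0.211 (SD, n = 2 libraries). The median member was at 42.9 TPM in Rep1 and 109 in Rep2, whereas the median of all listed genes was 2.09 and 7.93 TPM. By mean level, 81 of the 85 lay above the middle of the 14693 genes detected in at least 1 library, and 33 lay in the top 10%. The median member was at percentile 87.0.

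A read counted for more in Rep1 than in Rep2. The ratio of a gene's 2 values is a ratio of whole read numbers times a constant, and that constant was 17.2, so 1 read in Rep1 was worth as much TPM as 17.2 reads in Rep2. For the 81 members above 0 in both libraries, the smallest read numbers that gave the observed ratio, which are lower bounds, had a median of 23 in Rep1 and 1160 in Rep2. The true numbers can be any multiple of these, so the bounds do not rank the members by depth, and the part of counting error in the differences was not tested.

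The libraries also differed in general. Of the genes averaging 1 TPM or more, 18.2% were at least 2-fold higher in Rep1 and 58.7% in Rep2 on the log2(TPM + 1) scale, and the median difference over these 11754 genes was -1.52. The 8 oligodendrocyte markers summed to 46022 TPM in Rep1 and 212406 in Rep2, the 7 astrocyte markers to 1098 and 7321 TPM, and the 5 fibroblast markers to 1617 and 15124 TPM. The 8 retina markers went the other way, with 3325 and 20.8 TPM, and the 5 neuron markers summed to 1903 and 38.3 TPM, where *SNAP25* and *SYT1* made nearly all of the Rep1 sum and the median difference of the list was -0.01. Sums were 224 and 477 TPM for 7 microglia markers, 83.3 and 328 TPM for 7 endothelial and pericyte markers and 4537 and 1098 TPM for 3 erythrocyte markers. Listed at 0 were *VWF* and *HBA1* in Rep1 and *CRX* in Rep2. The labelled optic nerve tissue was thus present by its glial markers in both libraries, and the part of cell composition in the ribosomal protein values was not tested. In bulk tissue, fewer cells of a type and less RNA per cell cannot be told apart.

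**Figure D1:**
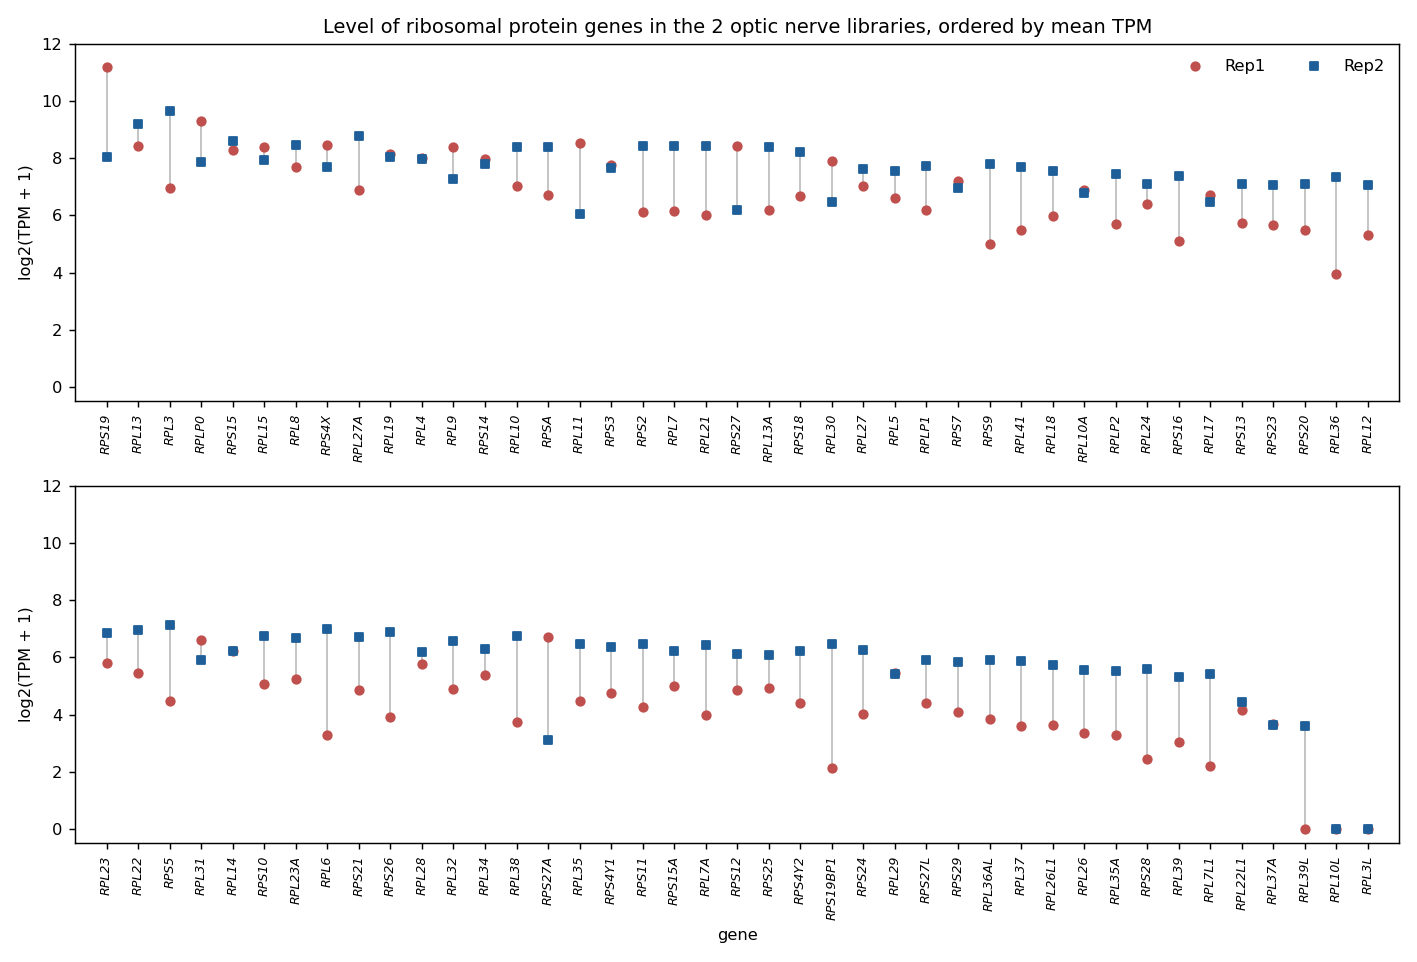
Level of 82 of the 85 ribosomal protein genes on the log2(TPM + 1) scale in Rep1 (circles) and Rep2 (squares), ordered by mean TPM, with a grey line joining the values of a gene. *RPS19* in Rep1, at 2349 TPM, stands above every other point, and Rep2 is the higher library for 64 of all 85 genes.

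The 8 members of highest mean level were *RPS19*, *RPL13*, *RPL3*, *RPLP0*, *RPS15*, *RPL15*, *RPL8* and *RPS4X*. *RPS19*, whose protein is needed to mature the RNA of the small subunit, was at 2349 TPM in Rep1 and 261 in Rep2, a mean of 1305 ± 1476 TPM (SD, n = 2). It alone made 23.7% of the ribosomal protein TPM of Rep1 and 2.02% of that of Rep2. Without it the share held by the members was 0.758% in Rep1 and 1.26% in Rep2. The *RPS19* values rested on at least 305 and 583 reads.

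*RPL13*, a large subunit protein, was at 344 TPM in Rep1 and 594 in Rep2. *RPL3*, which lies next to the site of peptide bond formation, was at 123 and 810.5 TPM and was the highest member of Rep2. *RPLP0*, the base of the stalk that recruits translation factors, was at 638 TPM in Rep1, second to *RPS19*, and at 234 TPM in Rep2. The leading genes of one library were thus mostly not those of the other. Only *RPL13* and *RPS15* were among the 10 highest members of both libraries. *RPS15*, of the small subunit head, was at 312 and 389 TPM. *RPL15* was at 335 and 244 TPM and *RPL8*, a neighbor of the peptidyl transferase center, at 205 and 357 TPM. *RPS4X*, the X-linked form of RPS4, was at 355 and 207 TPM. The 8 highest members of each library made 51.0% of the ribosomal protein TPM in Rep1 and 28.1% in Rep2.

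At the low end, 2 members were listed at 0 in both libraries, *RPL3L*, known from striated muscle, and *RPL10L*, known from testis. *RPL39L*, another paralog known from testis, was listed at 0 in Rep1 and at 11.0 TPM in Rep2. Other low members were *RPL37A*, at 11.8 and 11.4 TPM, *RPL22L1*, at 16.9 and 20.9 TPM, *RPL7L1*, at 3.58 and 41.8 TPM, and *RPL39*, at 7.32 and 38.9 TPM.

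Although the subunit proteins are needed in matched amounts, the mRNA levels were far from equal. Over all members the SD of log2(mean TPM + 1) was 1.75. Among the 74 standard subunit genes, the SD of log2(TPM + 1) was 1.84 in Rep1 and 1.37 in Rep2. The middle 50% of them ranged from 25.8 to 121.8 TPM in Rep1 and from 76.6 to 218 TPM in Rep2. In Rep1, 34 of the 74 lay within 2-fold of their median of 52.6 TPM, and in Rep2, 49 lay within 2-fold of their median of 126 TPM. Across the 85 members, log2(TPM + 1) in both libraries gave Pearson's r of 0.71 with Spearman's rho of 0.67, and across the 74 the r was 0.59. These are correlations across genes of the same libraries, which share lengths and library composition and are not independent replicates.

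The lengths by which the authors divided the counts are not given in the sources used here, so the order of members by TPM depends on lengths that could not be checked. In Mmul_10 the merged exons of the members ranged from 276 to 4493 bases with a median of 752 bases. The median was 3173.5 bases for all listed genes found in the annotation.

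The large subunit genes were higher than the small subunit genes by median in Rep1 and close to them in Rep2. The median small subunit gene was at 33.7 TPM in Rep1 and 123 in Rep2, and the median large subunit gene at 64.5 and 127 TPM. The ratio of small to large was 0.522 in Rep1 and 0.963 in Rep2, a mean of 0.742 ± 0.312 (SD, n = 2). Both values were below 1. An SD of 2 libraries reflects only the gap between them and cannot show whether the ratio differs from 1.

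The ribosomal protein genes were mostly lower in Rep1, as were most genes. Of the 82 members averaging 1 TPM or more, 7 were at least 2-fold higher in Rep1, where 18.2% of all genes were, and 53 were at least 2-fold higher in Rep2, where 58.7% of all genes were. The median difference was -1.57, next to -1.52 over all genes. The median member thus differed about as much as the median gene. The general shift by the median of ratios was -1.19 on the log2 scale, and dividing it out left 20 members at least 2-fold higher in Rep1, where 28.8% of all genes were, and 25 in Rep2, where 40.2% were. The median member difference was then -0.39 and the median over all genes -0.48.

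**Figure D2:**
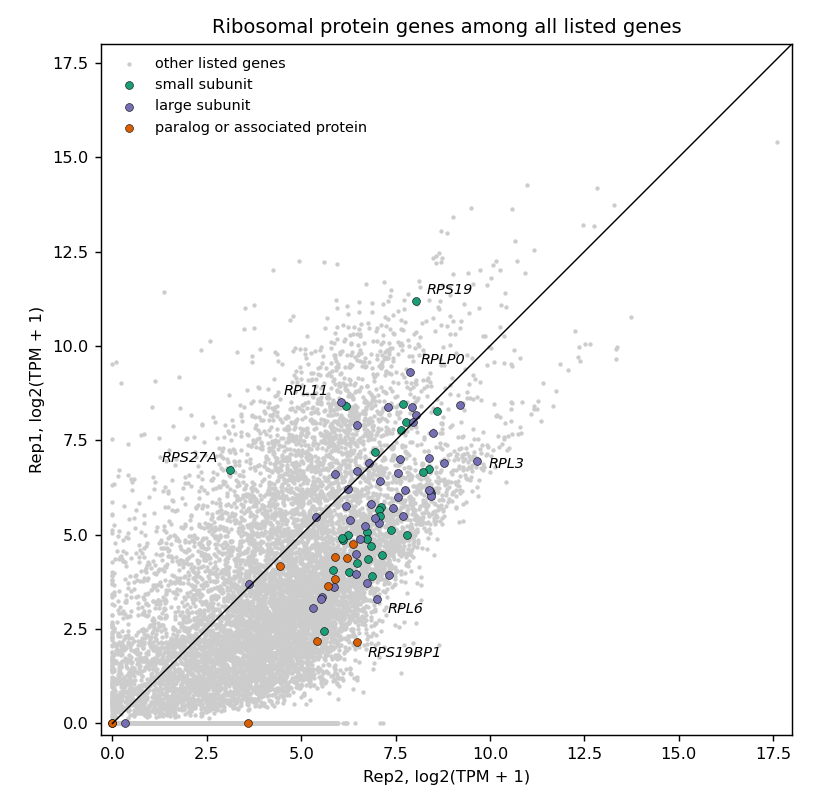
Rep1 against Rep2 on the log2(TPM + 1) scale for all 16684 listed genes (grey) and the 85 ribosomal protein genes (colored by subunit), with the line of equal values. Most members lie below the line, at 123 and 810.5 TPM for *RPL3* for example, and *RPS27A*, *RPS19* and *RPL11* lie well above it.

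The 7 members at least 2-fold higher in Rep1 were *RPS27A*, *RPS19*, *RPL11*, *RPS27*, *RPLP0*, *RPL30* and *RPL9*. *RPS27A*, which encodes ubiquitin joined to a small subunit protein, was at 105 TPM in Rep1 and 7.65 in Rep2, a difference of 3.61 on the log2(TPM + 1) scale and the largest toward Rep1 of any member. *RPS19* followed with 3.16. *RPL11*, which binds the 5S ribosomal RNA, was at 366 and 66.0 TPM, a difference of 2.45. *RPS27*, a zinc-binding protein of the small subunit, was at 340.0 and 71.6 TPM, a difference of 2.23. Scaling by the median of ratios raises Rep1 relative to Rep2, so all 7 had to stay at least 2-fold higher in Rep1 after it. *RPLP0* differed by 1.45, *RPL30*, at 238 and 87.9 TPM, by 1.43, and *RPL9*, at 333 and 155 TPM, by 1.09.

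The members most strongly higher in Rep2 were low in Rep1. *RPS19BP1*, which besides RPS19 binds the deacetylase SIRT1, was at 3.43 TPM in Rep1 and 88.6 in Rep2, a difference of -4.34, from at least 3 and 1333 reads. *RPL6*, of the large subunit, was at 8.85 and 127 TPM, a difference of -3.70. *RPL39L* differed by -3.59 with its value of 0 in Rep1. *RPL36*, also of the large subunit, was at 14.4 and 160.1 TPM, a difference of -3.39. *RPL7L1*, a protein of ribosome assembly related to RPL7, differed by -3.23. At the other extreme, *RPL4*, at 255 and 249 TPM, *RPL14*, at 73.4 and 74.4 TPM, and *RPL29*, at 42.9 and 41.3 TPM, had nearly the same level in both libraries.

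Members with a shared role did not all differ in the same direction. The P stalk of the large subunit recruits the factors that drive each step of translation. Its base *RPLP0* was higher in Rep1, while *RPLP1*, at 72.0 and 212 TPM, *RPLP2*, at 50.9 and 172 TPM, and *RPL12*, at 39.0 and 132 TPM, were higher in Rep2. *RPLP1*, *RPLP2* and *RPL12* differed by -1.55, -1.74 and -1.74, near the median of -1.52 over all genes. As deposited, 1 of the 4 was at least 2-fold higher in Rep1 and 3 in Rep2, where 18.2% and 58.7% of all genes were. After scaling by the median of ratios the counts were 1 and 0, where 28.8% and 40.2% of all genes were. The 4 stalk genes summed to 800.3 and 751 TPM. RPLP1 and RPLP2 stand as dimers on a single RPLP0 in the ribosome, whereas the mRNA of *RPLP0* was the highest of the 4 in both libraries.

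*RPL5* and *RPL11* form with the 5S ribosomal RNA the particle that also binds MDM2, the regulator of p53. *RPL5* was at 97.5 TPM in Rep1 and 187 in Rep2, a difference of -0.93, opposite to that of *RPL11* as deposited, which scaling by the median of ratios turned to 0.25. In Rep1 *RPL11* was thus above *RPL5*, and in Rep2 below it.

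The 8 genes of the peptide exit tunnel had a median difference of -0.71, with 4 members at least 2-fold higher in Rep2 and none in Rep1, where 58.7% and 18.2% of all genes were, and the median turned to 0.46 after scaling, with 4 higher in Rep1 and 2 in Rep2, against 28.8% and 40.2% of all genes. *RPL19*, at 286 and 262 TPM, *RPL17*, at 103 and 88.4 TPM, and *RPL31*, at 96.1 and 58.8 TPM, were within 2-fold. *RPL26*, a docking site for targeting factors, was at 9.25 and 46.2 TPM, and *RPL23A*, where the signal recognition particle docks, at 36.5 and 102 TPM. *RPL35*, their neighbor at the tunnel mouth, was at 21.3 and 86.9 TPM.

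Of the 6 genes at the decoding site and the mRNA channel, 4 were at least 2-fold higher in Rep2, and 3 after scaling, where 58.7% and 40.2% of all genes were, so the counts were near the general shares. *RPS2* was at 68.4 and 346 TPM, *RPS23* at 49.7 and 132 TPM, *RPS26* at 14.1 and 117 TPM and *RPS28* at 4.41 and 47.7 TPM. *RPS3*, at the mRNA entry, was at 219 and 200.3 TPM, and with *RPS15* was within 2-fold. *RPS28* and *RPS26* at the mRNA exit were thus the lowest of the 6 in Rep1 and *RPS15* the highest in both libraries.

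Among the fusions with ubiquitin or a ubiquitin-like protein, *RPS27A* went opposite to *FAU*, whose symbol is outside the rule and which was at 71.6 and 213 TPM. Of 5 genes for sites of signaling and stress, 3 were members. *RPS10*, at 32.8 and 107 TPM, and *RPS20*, at 44.2 and 135 TPM, are ubiquitylated when ribosomes collide, and *RPL13A*, at 71.4 and 334 TPM, can leave the ribosome to repress translation. All 3 were at least 2-fold higher in Rep2, and after scaling 1 was, where 58.7% and 40.2% of all genes were. *RPS6*, *RPS3A* and *RPL36A* carry numbered locus names in the Mmul_10 annotation, and with *RACK1* they were not analysed here.

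Diamond-Blackfan anemia is a failure of red cell production that usually follows loss of 1 copy of a ribosomal protein gene. Of 10 members known to be mutated in it, 2 were at least 2-fold higher in Rep1 (*RPS19* and *RPL11*) and 5 in Rep2, near the 18.2% and 58.7% of all genes, and the median difference was -1.30, which became -0.13 with 4 higher in each library after scaling, where 28.8% and 40.2% of all genes were. *RPS26* had the largest difference toward Rep2 among them, at -2.97. *RPS24* was at 15.1 and 76.2 TPM, *RPL35A* at 8.76 and 44.9 TPM and *RPS7* at 146 and 123 TPM.

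The paralogs were expressed below their parent genes in most pairs. The 9 paralogs whose parent gene was listed summed to 9.16% of their parents in Rep1 and 17.2% in Rep2. *RPL26L1* was the exception, at 11.5 and 51.6 TPM against 9.25 and 46.2 TPM for *RPL26*, or 124% and 112% of it. *RPS27L*, whose product is induced by p53, was at 20.3 and 58.7 TPM, which was 5.98% of *RPS27* in Rep1 and 82.0% in Rep2, while *RPS27* itself was at 340.0 and 71.6 TPM. *RPL36AL*, whose parent was not analysed here, was at 13.2 and 58.4 TPM. The parents *RPL7* and *RPL10* were at 69.9 and 342 TPM and at 129 and 333 TPM, far above *RPL7L1* and *RPL10L*. *RPL22L1* was 39.6% and 16.8% of *RPL22*, which was at 42.8 and 124 TPM. The Y-linked *RPS4Y1*, at 26.2 and 81.5 TPM, and *RPS4Y2*, at 20.0 and 73.9 TPM, were above 0 in both libraries, and together made 11.5% of the summed RPS4 TPM in Rep1 and 42.9% in Rep2.

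Near-identical copies could let reads be assigned to another place. A copy was counted where at least 80% of the coding sequence matched elsewhere in Mmul_10 with at least 95% identity. Of the 85 members, 68 had 1 or more copies, 414 in all, with a median of 3 and up to 24 for *RPL21*. The 17 members with no copy had medians of 26.2 TPM in Rep1 and 88.6 in Rep2, and the 15 members with 10 or more had 39.0 and 88.4 TPM. The 32 with 1 to 4 copies had 71.7 and 128 TPM, and the 21 with 5 to 9 had 40.6 and 117 TPM. Level did not order with the number of copies, with a Spearman rho of -0.0077 over the 85 members, given as a description. Whether the authors counted reads with several alignments is not given in the sources used here, so the values of these 68 members are uncertain to that extent. Exons of 8 members overlap those of a gene on the opposite strand (*RPL15*, *RPL23A*, *RPL31*, *RPL35*, *RPL39L*, *RPL7A*, *RPL7L1* and *RPS25*), and reads there may belong to either gene.

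**Figure D3:**
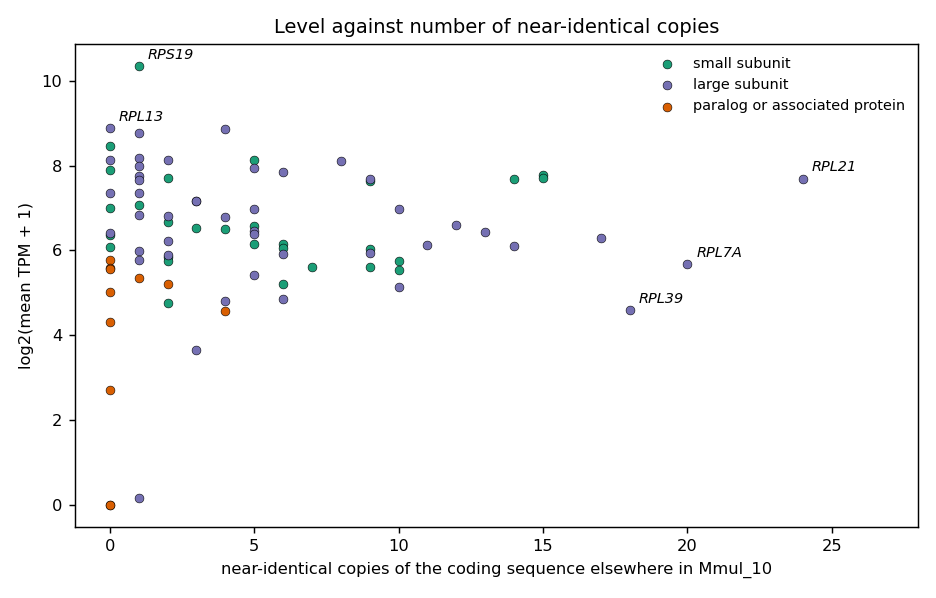
Mean level of each member on the log2(TPM + 1) scale against the number of near-identical copies of its coding sequence elsewhere in Mmul_10. *RPL21*, with 24 copies, and *RPL13*, with none, both lie among the high members, while *RPL39*, with 18, lies among the lower ones.

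The sequence at some loci showed what the symbol stands for in this build. *RPL41*, on chromosome 11 at chr11:55676191-55677418, encodes the shortest of the proteins, and its coding sequence is shown because its 75 bases are repeated elsewhere with up to 100% identity among its 10 copies. It was at 44.5 TPM in Rep1 and 207 in Rep2. Capitals mark the start codon.
*RPL41*: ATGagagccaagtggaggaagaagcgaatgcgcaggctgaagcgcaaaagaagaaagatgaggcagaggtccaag
*RPL37A*, at chr5:97312670-97313033 on the minus strand, is annotated with 1 exon, and the coding sequence is shown because it holds a stop codon at codon 50 of 92. Capitals mark that codon.
*RPL37A*: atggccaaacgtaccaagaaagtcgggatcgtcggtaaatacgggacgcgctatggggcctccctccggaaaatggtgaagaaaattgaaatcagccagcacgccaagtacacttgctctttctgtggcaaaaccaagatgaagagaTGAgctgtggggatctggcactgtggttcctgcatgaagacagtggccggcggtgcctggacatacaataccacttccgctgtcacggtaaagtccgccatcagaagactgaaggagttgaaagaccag
No other member whose annotated coding sequence was a whole number of codons held a stop inside it, and *RPS4Y2*, annotated with 1 base over whole codons, could not be read in this way. *RPS27A*, at chr7:127585595-127586135, and *RPL10L* were the only other members annotated with 1 exon. In other mammals *RPL37A* and *RPS27A* are spliced genes, so the values listed here are those of the annotated intronless loci, and whether reads of spliced genes elsewhere were counted under these symbols was not tested. Without the 3 single-exon members, 6 members were at least 2-fold higher in Rep1 and 53 in Rep2.

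The ribosomal protein genes also shared features of their genes that TPM does not use. They lay on 20 chromosomes, with 12 on chromosome 19. Of the 85 members, 27 (31.8%) contained annotated snoRNA genes, 55 in all, against 1.62% of the 16275 listed protein-coding genes. The 27 host genes had medians of 55.4 TPM in Rep1 and 135 in Rep2, and the 58 others 33.2 and 105 TPM. *RPL3*, *RPL4*, *RPL13A*, *RPL23A* and *RPL7A* were among those that held 4 snoRNA genes. Members with more exons had higher mean levels, with a Spearman rho of 0.47 over 85 genes, while the rho with transcript GC content was 0.20, both descriptions across genes that share libraries and lengths.

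Mitochondrial ribosomal proteins build the separate ribosome that translates the genes of the mitochondrion. Their 76 genes had medians of 7.16 TPM in Rep1 and 45.5 in Rep2 and summed to 6.53% of the cytoplasmic members in Rep1 and 30.1% in Rep2. None of the 75 averaging 1 TPM or more was 2-fold higher in Rep1 and 71 were in Rep2. Over all genes the shares were 18.2% and 58.7%. The median difference was -2.68, against -1.57 for the cytoplasmic members and -1.52 over all genes. After scaling these medians were -1.57, -0.39 and -0.48. The mitochondrial counts were then 1 in Rep1 and 55 in Rep2, where 28.8% and 40.2% of all genes were. *MRPL27*, the highest, was at 27.0 and 178 TPM, and *MRPL9* was listed at 0 and at 62.1 TPM. The difference between the 2 lists describes these libraries and has no replicate check.

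Lists for the other parts of translation lay on both sides of the ribosomal proteins by median difference. The 11 elongation and release factor genes averaging 1 TPM or more had a median difference of -0.62, with 3 at least 2-fold higher in each library. *EEF1A1*, which brings aminoacyl-tRNA to the ribosome, was above every ribosomal protein gene by mean level, at 2110.2 TPM in Rep1 and 1377 in Rep2, and *EIF5A* had the largest difference, at 2171 and 12.6 TPM. The 39 initiation factor genes had a median of 0.23, with 15 higher in Rep1 and 11 in Rep2, led by *EIF4G2* at 12964 and 728 TPM. The 57 ribosome assembly factors had a median of -1.70, with 11 higher in Rep1 and 38 in Rep2. The highest of these was *NCL*, the nucleolar protein nucleolin, at 189.8 and 611 TPM. The 16 other TOP mRNA genes had a median of -0.45, with 2 higher in Rep1 and 6 in Rep2. Over all genes, 18.2% were at least 2-fold higher in Rep1 and 58.7% in Rep2, with a median of -1.52. The list shares were 27.3% and 27.3% for elongation and 38.5% and 28.2% for initiation. They were 19.3% and 66.7% for assembly and 12.5% and 37.5% for the other TOP mRNAs. Scaled by the median of ratios, the medians were 0.52 for elongation, 1.41 for initiation, -0.62 for assembly and 0.73 for the other TOP mRNAs, so that the sign turned for the first and the last. *PABPC1*, the poly(A) binding protein, was at 1287 and 172 TPM, and *EEF1D* at 20.1 and 144 TPM.

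**Figure D4:**
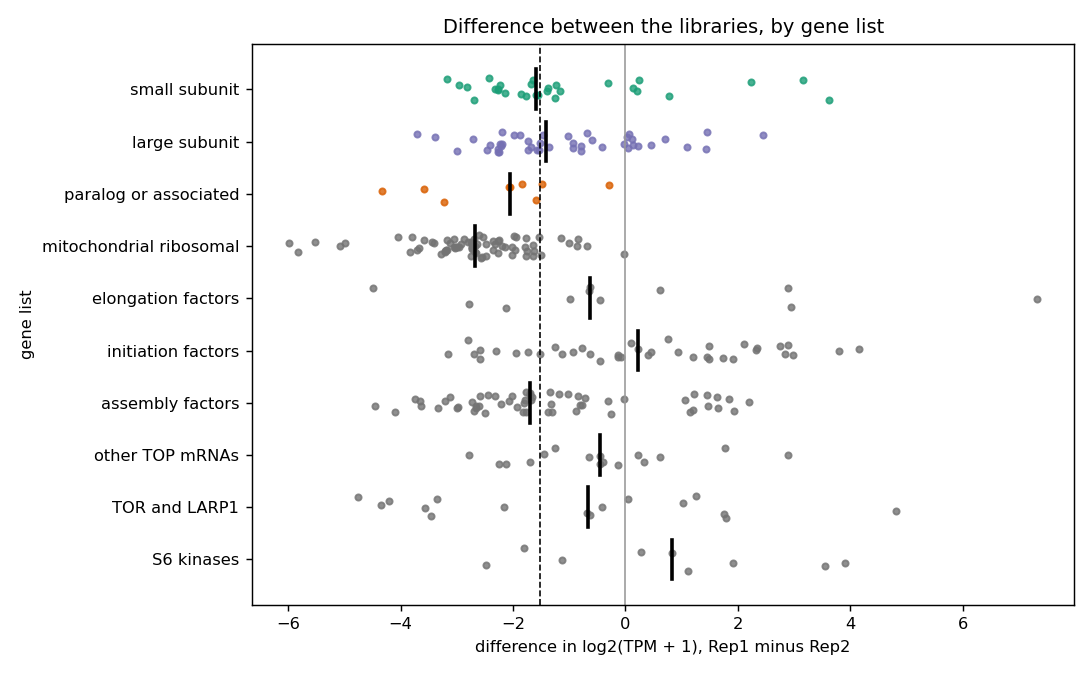
Difference in log2(TPM + 1), Rep1 minus Rep2, for each gene averaging 1 TPM or more (points) in 10 lists, with the median of each list (thick bar), the median over all 11754 genes (dashed line, -1.52) and no difference (grey line). The small and large subunit genes spread on both sides of the dashed line, and the mitochondrial ribosomal protein genes lie mostly to its left with a median of -2.68.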

How the data were processed

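RNA-seq of 2 optic nerve libraries was analyzed from a table of gene levels. Per the labels and the methods of the study, the authors checked reads with FastQC 0.11.9, trimmed them with Trim Galore 0.6.6, aligned them to Mmul_10 with STAR 2.7.1a and counted them with featureCounts 1.5.3. The deposited values are TPM computed by the authors, which sum to 1000000 per library, so depth is not recorded. Columns were named Rep1 and Rep2 and could not be tied to single samples. The members and lists were chosen with earlier results of these data known. Any member could be named, and the 8 highest, the 8 lowest, the 5 largest differences each way and the role lists were described. Some single genes are not reported here. Other lists were shown by the highest gene and the largest differences.

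Differences were taken on log2(TPM + 1) for genes averaging 1 TPM or more, which understates changes of low genes. No test was possible with 1 condition. Relative depth was recovered from read ratios with a tolerance of 1e-12 for 99.9% of 10168 genes. Copies were found with BLAST 2.17.0, and sequences were read from Mmul_10 (RefSeq). All 85 symbols matched. Python 3.11, numpy 2.4.6, pandas 2.3.3, scipy 1.17.1 and matplotlib 3.10.9 were used. Scaling and read recovery were tested on simulated data.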

Additional observations from a re-analysis of the deposited data

How the results depend on the processing

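Of 52 alternative values for the 8 results, 39 stayed within the spread of the libraries or within 1.5 times the count, 13 moved and none reversed. Of the 39, 4 could not change because a scaling or a choice of members leaves that share or ratio as it is, and the count is no measure of stability. The share of all TPM, 1.14%, became 1.44% without the 10 most abundant genes, 0.206% for members with no near-identical copy and 0.316% when TPM was multiplied by Mmul_10 exon length, which need not be the length the authors divided by. Scaling by the median of ratios moved the median difference from -1.57 to -0.39, the members higher in Rep1 from 7 to 20 and those higher in Rep2 from 53 to 25. Members with no near-identical copy, which are fewer, gave counts of 1 and 9, and a 4-fold limit gave 4 and 28. The SD of log2(mean TPM + 1) among members, 1.75, became 1.41 for standard subunit genes, 2.62 for members with no copy and 2.18 with a pseudocount of 0.1. Leaving out 1 library gave 1.72 to 2.13 for this SD, 0.992% to 1.29% for the share, 42.9 to 109 TPM for the median level, 0.522 to 0.963 for the ratio of small to large subunit medians and 9.16% to 17.2% for the paralogs, and is not defined for differences. With 2 libraries each lies within 1 SD of their mean by construction. Leaving out *RPS19* or single-exon members, both chosen after seeing the data, moved none of the 7 results they were run on. No paired analysis was possible because no second condition was measured. Depth was lower in Rep1, where 1 read was worth as much as 17.2 reads of Rep2, and 2 libraries give an SD of little precision.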

Other observations

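Regulators of ribosomal protein mRNA translation were measured in the same libraries. Of the 16 genes of the mTOR and LARP1 pathway, 5 were at least 2-fold higher in Rep1 and 7 in Rep2. The shares of all genes were 18.2% and 58.7%, all on the log2(TPM + 1) scale. The median difference of the 16 was -0.66, which turned to 0.45 after scaling by the median of ratios. *LARP1*, which binds the TOP tract and was named with *MTOR* after its values were seen, was at 94.2 TPM in Rep1 and 91.0 in Rep2, and *MTOR*, the kinase, at 10.7 and 17.1 TPM. *RHEB*, the GTPase that activates mTOR complex 1, was the highest, at 526 and 219 TPM. *RRAGC* had the largest difference toward Rep1, at 369 and 12.2 TPM, and *MLST8* the largest toward Rep2, listed at 0 in Rep1 and at 26.0 TPM in Rep2.

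The S6 kinases, named for their phosphorylation of RPS6, were left out of the member rule. Of 9 averaging 1 TPM or more, 4 were at least 2-fold higher in Rep1 and 3 in Rep2. The shares of all genes were 18.2% and 58.7%. The median difference of the S6 kinases was 0.83, or 1.88 after scaling. *RPS6KA1* was at 871 TPM in Rep1 and 57.4 in Rep2, and *RPS6KA2* at 9.89 and 59.5 TPM. *RPS6KB1*, the kinase downstream of mTOR, was at 599 and 50.5 TPM, and was chosen for naming after its values were seen.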
